A study of Mus musculus with 10 samples.

Results

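The kinesin superfamily genes measured in mouse thymus were described across 4 groups that differ in p53 and mdm2. Members were all genes whose platform annotation gave a single symbol made of Kif and a number, each represented by the feature with the highest mean signal, which left 27 genes of 14860 with a named feature. By their textbook roles 9 were counted as mitotic, 10 as transport and 8 as other kinesins. The roles were assigned from 38 listed kinesins, of which 12 are mitotic, 13 transport and 13 other. The other 11 listed kinesins, among them the mitotic genes Kif14, Kif18b and Kif2b, are not members. Kif18b has a feature whose annotation lists the symbol under 2 gene identifiers, so whether it meets the rule is open to reading, and its values are given beside those of the mitotic members.

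RNA from normal thymus of C57BL6/129 hybrid mice aged 4 to 5 weeks was hybridised to Affymetrix whole-transcript arrays, with 1 array per sample and 10 samples in all. Mice homozygous for a p53 allele numbered 246, written p53(246/246) and called mutant p53 here, gave 2 samples without mdm2, mdm2(-/-), and 3 with wild-type mdm2. Mice without p53, written p53(-/-) and called p53-null, likewise gave 2 samples without mdm2 and 3 with wild-type mdm2. No group had wild-type p53, so the mdm2 wild-type samples also lack it. The labels name no conditional allele and do not say whether replicates were separate animals, so p-values measure only the spread between these samples, which may be technical.

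Kinesins are motor proteins that use ATP to walk along or take apart microtubules. Mitotic kinesins build the spindle, align chromosomes and complete cytokinesis, and their transcripts accumulate in dividing cells. Transport kinesins carry vesicles, organelles and ciliary cargo in cells whether or not they divide. Most cells of a young thymus are thymocytes, which pass through phases of rapid division before they rearrange and test their antigen receptors.

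Values were the authors' log2 signals, whose medians lay between 6.10 and 6.26 per sample. The signal of Mdm2 averaged 8.37 in mdm2-null and 9.55 in mdm2 wild-type samples, 2.28-fold lower, and the groups did not overlap. The difference has the direction the labels give, but the signal left in mdm2-null samples was well above the sample medians and does not show absence of the transcript. Which part of the gene is deleted and which part the feature reads are not given in the sources used here. In what follows, samples without or lacking mdm2 are those with the labelled genotype mdm2(-/-). The labelled tissue was borne out by 7 measured thymocyte markers, with a mean of 10.5 to 10.9 in every sample, and by 7 thymic epithelial markers, with a mean of 8.66 to 9.09. Array names fell into 3 sets, and 0 sets held both mdm2 genotypes, so array set and mdm2 genotype cannot be told apart in any mdm2 comparison below. The mdm2-null groups also lay in different sets. A mean of the Y-linked genes Kdm5d and Eif2s3y was 3.59 in replicate 1 of the p53-null group with mdm2, against 8.49 to 9.35 elsewhere. The mean of 8 liver genes was 6.52 to 9.48 in samples lacking mdm2, against 4.08 to 4.39 in those with it.

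Many mitotic genes carry near their start site a cell cycle homology region (CHR), a short element through which the DREAM and MuvB complexes time transcription. To show whether the mitotic kinesins share it, windows of 250 bases before and 50 after each start site were taken from RefSeq (GRCm38.p6). Windows were used for 24 of the 27 members, and none was used for Kif20a, Kif5a and Kif5b. Kif20a and Kif5b were left out with their chromosome, whose windows were not read for members, so their absence does not show a gap in RefSeq. The member counts below cover only genes with a window, and whether Kif20a holds the letters was not tested. The letters TTTGAA or TTCGAA, on either strand, were found in the window of 7 of 8 mitotic members. They were found in 1 of 8 transport members (Kif1a, in only 1 of its windows) and in 3 of 8 other members. Of all 32851 windows 19.2% held them. Members were counted as genes with any window holding the letters, whereas this share and the next count single windows with no chromosome left out. The letters CCAAT, on either strand, were in 4 of 8 mitotic, 3 of 8 transport and 4 of 8 other members, against 37.4% of all windows. These matches describe letters only. The stretches below run from 60 bases before to 40 bases after the start site in the direction of the gene, and capitals mark the CHR letters (TTTGAA, or TTCAAA on the opposite strand) and CCAAT boxes (ATTGG on the opposite strand). The first 6 are mitotic members with a match near the start site, and Kif1b and Kif1c are the transport members whose signal changed most.
Kif11 (chr19:37376322-37376421, + strand): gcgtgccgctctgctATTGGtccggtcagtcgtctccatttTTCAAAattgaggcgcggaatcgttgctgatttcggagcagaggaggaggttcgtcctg
Kif15 (chr9:122951021-122951120, + strand): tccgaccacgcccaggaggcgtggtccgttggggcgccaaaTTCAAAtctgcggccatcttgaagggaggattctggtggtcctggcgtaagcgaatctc
Kif20b (chr19:34922298-34922397, + strand): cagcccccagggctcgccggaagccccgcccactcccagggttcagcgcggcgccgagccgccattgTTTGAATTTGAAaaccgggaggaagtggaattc
Kif22 (chr7:127042381-127042480, - strand): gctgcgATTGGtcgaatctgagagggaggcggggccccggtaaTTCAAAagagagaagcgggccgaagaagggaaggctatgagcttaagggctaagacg
Kif23 (chr9:61946760-61946859, - strand): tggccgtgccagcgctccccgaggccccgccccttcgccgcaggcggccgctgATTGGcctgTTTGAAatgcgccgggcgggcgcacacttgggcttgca
Kif4 (chrX:100626005-100626104, + strand): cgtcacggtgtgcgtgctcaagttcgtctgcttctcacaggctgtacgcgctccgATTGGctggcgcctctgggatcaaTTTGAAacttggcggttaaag
Kif1b (chr4:149307694-149307793, - strand): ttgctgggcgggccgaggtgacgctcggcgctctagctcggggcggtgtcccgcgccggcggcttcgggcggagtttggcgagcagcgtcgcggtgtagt
Kif1c (chr11:70700488-70700587, + strand): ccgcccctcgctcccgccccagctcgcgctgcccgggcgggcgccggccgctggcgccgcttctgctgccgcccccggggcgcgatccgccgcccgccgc

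The CHR letters began at -19 in both Kif11 and Kif15 and at -17 in Kif22, counted with the start site as position 1. Outside the stretches shown, Kif15 had a further match at -234 and Kif22 at -215. They began at position 8 and again at 14 in Kif20b, at 3 in Kif23 and at 20 in Kif4. The Kif2c match, in a stretch not shown, began at -103. Kif18a had no match in its window. CCAAT boxes also lay outside the stretches shown. In Kif1b they began at -118 and -87, counted from the start site of its stretch, in Kif22 at -233 and in Kif4 at -152.

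Over both p53 genotypes, the mitotic genes Kif11 and Kif20a and the transport gene Kif1b fell without mdm2, and 1 of 2 features of the transport gene Kif1c rose. All 9 mitotic members had a negative log2 difference, from -0.42 to -0.10 with a median of -0.32. The Kif18b feature, which was not counted among them, lay outside that range at -0.06 (SE 0.12, adjusted p = 0.836, limma), with 8.42 to 8.68 in samples lacking mdm2, against 8.33 to 8.88 in those with it. Transport members had a median of -0.04, with 6 negative and 4 positive, and other members a median of -0.10, with 7 of 8 negative. Over all 23332 features the median was -0.02 and 53.8% were negative. The median difference of mitotic members thus lay 0.28 below that of transport members, a description that was not tested. It ranged from -0.32 to -0.22 over all settings tried, which included fits without the dimmer 25% or 50% of features. The roles also differed in signal level. The lowest mitotic mean was at percentile 75.8 of features, while 3 of 10 transport members lay in the lowest 25%. Role and signal level were not separated in this description. The signs of all mitotic members were the same under median centring and quantile normalization, while median centring gave 5 negative and 5 positive transport members.

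By limma with Benjamini-Hochberg adjustment over all features, 4 members passed an adjusted p of 0.05, namely Kif11, Kif20a, Kif1b and Kif1c, against 3.87% of all features. That is 3 lower, against 1.90% of all features, and 1 higher, against 1.96%. At an unadjusted p under 0.05 there were 6 of 9 mitotic, 3 of 10 transport and 2 of 8 other members, against 21.0% of all features. When single samples were omitted in turn, 0 to 2 members were called. Of samples lacking mdm2, omitting either mutant p53 replicate or p53-null replicate 1 left 0 calls, and omitting p53-null replicate 2 left 1 (Kif20a). Of samples with mdm2, omitting mutant p53 replicate 1 or 3, or p53-null replicate 1 or 2, left 0, omitting mutant p53 replicate 2 left 1 (Kif1c), and omitting p53-null replicate 3 left 2 (Kif1b and Kif1c). Median centring left 1 call (Kif1c) and the plain linear model 1 (Kif11).

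**Figure D1:**
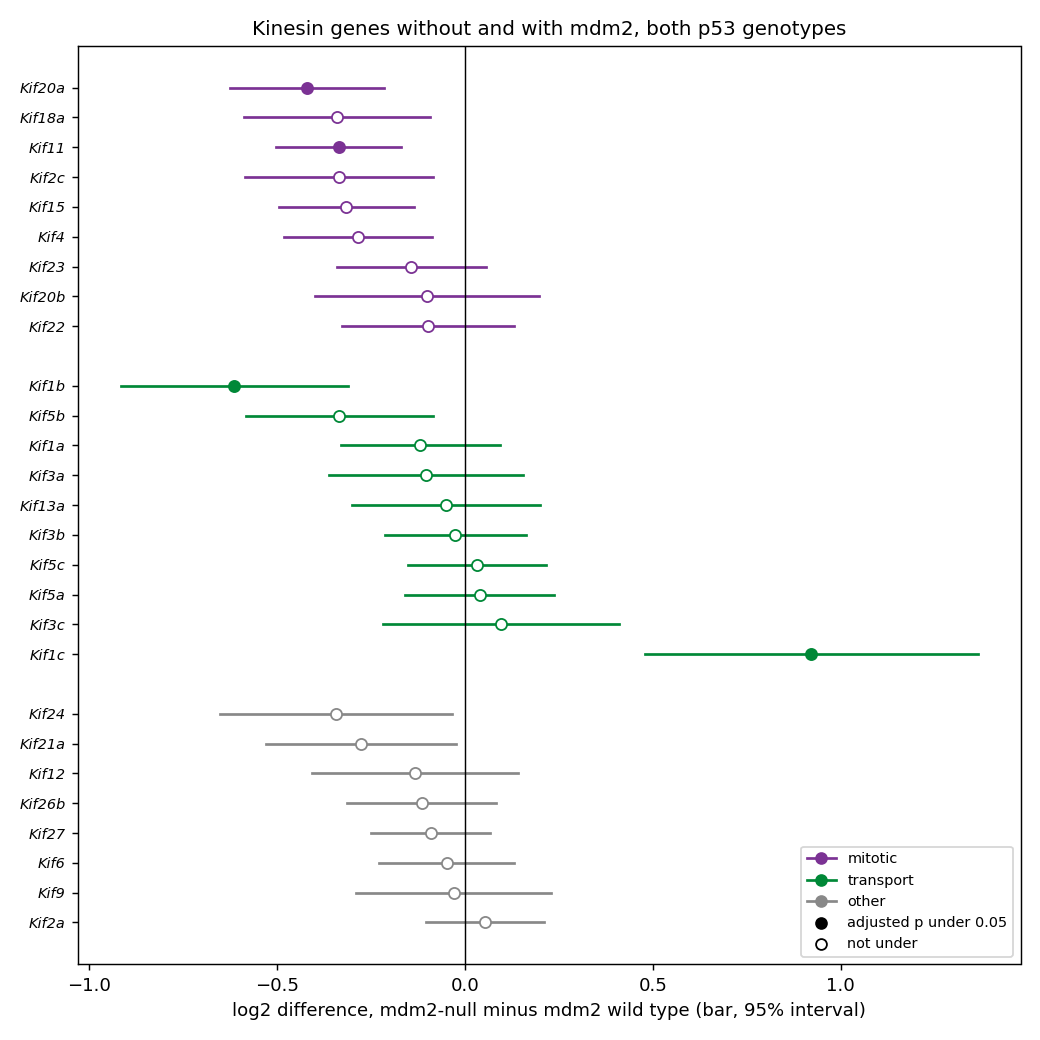
Log2 difference of each kinesin gene, mdm2-null minus mdm2 wild type over both p53 genotypes, with 95% intervals from limma, grouped by role and ordered by difference within each role. Filled points are Kif20a, Kif11, Kif1b and Kif1c, which passed an adjusted p of 0.05. The mitotic members all lie left of 0, while the transport members lie on both sides.

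Kif11 encodes the motor that slides antiparallel microtubules to separate the spindle poles. Its log2 signal was 10.05 and 10.21 in mutant p53, mdm2-null samples and 10.04 and 10.10 in p53-null, mdm2-null samples. In samples with mdm2 it was 10.58, 10.49 and 10.41 in mutant p53 samples and 10.34, 10.34 and 10.45 in p53-null samples. The highest value without mdm2, 10.21, stayed under the lowest with it, 10.34. On the log2 scale Kif11 fell by 0.34, or 1.26-fold, with an SE of 0.07 and an adjusted p of 0.0422 (limma). When single samples were omitted, its adjusted p lay between 0.0543 and 0.0983, so the call held in 0 of 10 such fits, while its difference stayed between -0.36 and -0.30.

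Kif20a, which brings the chromosomal passenger complex to the central spindle for cytokinesis, was 8.21 and 7.99 in mutant p53, mdm2-null samples and 7.88 and 8.23 in p53-null, mdm2-null samples. Where mdm2 was present it was 8.60, 8.47 and 8.57 in mutant p53 and 8.43, 8.39 and 8.52 in p53-null samples. The highest mdm2-null value, 8.23, stayed under the lowest mdm2 wild-type value, 8.39. Kif20a fell by 0.42 (SE 0.09, adjusted p = 0.0409, limma), or 1.34-fold. With single samples omitted, the call held in 1 of 10 fits.

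Kif15, which backs up Kif11 in keeping the spindle bipolar, also showed no overlap. It was 8.71 and 8.65 in mutant p53, mdm2-null and 8.67 and 8.51 in p53-null, mdm2-null samples, against 9.08, 8.94 and 9.01 in mutant p53 and 8.86, 8.79 and 9.03 in p53-null samples with wild-type mdm2. Its difference of -0.32 (SE 0.08) did not pass in the fit to all samples (adjusted p = 0.0592, limma). It passed in 2 alternatives, eBayes with trend and robust moderation (0.042) and without the dimmer 50% of features (0.0324). Thus 3 of 9 mitotic members had every mdm2-null sample below every mdm2 wild-type sample, against 4.52% of all features.

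For the remaining 6 mitotic members the mdm2 genotypes overlapped. Kif4, a chromokinesin that shapes chromosomes and the central spindle, averaged 8.05 ± 0.07 (SD, n = 4) in mdm2-null samples and 8.34 ± 0.16 (SD, n = 6) in mdm2 wild-type samples. Kif18a, which damps chromosome movements at the metaphase plate, averaged 8.03 ± 0.12 in mdm2-null samples and 8.37 ± 0.20 in mdm2 wild-type samples. Kif2c, a depolymerase that corrects faulty kinetochore attachments, averaged 8.99 ± 0.17 in mdm2-null samples and 9.33 ± 0.15 in mdm2 wild-type samples. These 3 genes had differences of -0.28, -0.34 and -0.34 with adjusted p of 0.101, 0.113 and 0.121 (limma). The weakest differences were those of Kif23, a subunit of centralspindlin, at -0.14 (95% interval -0.34 to 0.06), Kif20b, which acts in abscission, at -0.10 (-0.40 to 0.20), and the chromosome-arm motor Kif22, at -0.10 (-0.33 to 0.13). Their intervals include both no difference and one as large as that of Kif4.

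**Figure D2:**
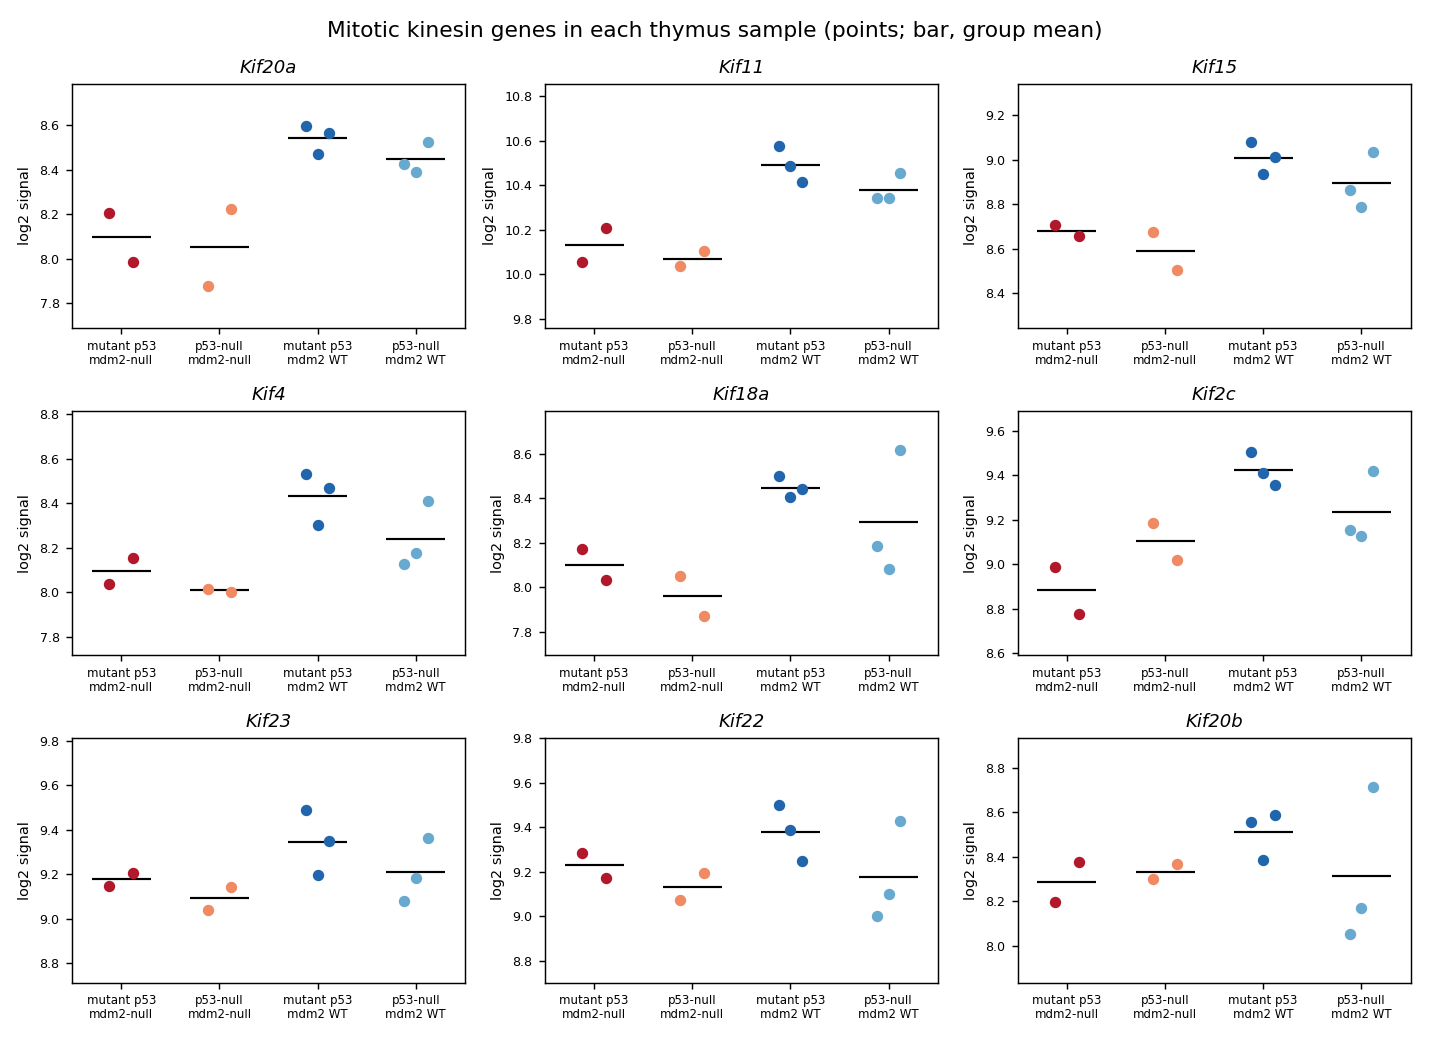
Log2 signal of the 9 mitotic kinesin genes in each of the 10 samples, with points for samples and bars for group means, in order of the unadjusted p of the mdm2 difference. Every panel spans the same range of log2 units. In Kif20a, Kif11 and Kif15 all 4 mdm2-null samples lie below all 6 mdm2 wild-type samples, and replicate 3 of the p53-null group with mdm2 is the highest of its group in all 9 panels.

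The mitotic members were averaged in each sample. Their mean log2 signal was 8.75 and 8.73 in mutant p53, mdm2-null and 8.69 and 8.71 in p53-null, mdm2-null samples. With wild-type mdm2 it was 9.15, 8.998 and 9.05 in mutant p53 and 8.80, 8.82 and 9.11 in p53-null samples. The 4 samples without mdm2 were close to each other and under all 6 with it, while replicates 1 and 2 of the p53-null group with mdm2 came closest to them. Replicate 3 of that group was its highest sample for 9 of 9 mitotic members, and replicate 1 of the mutant p53, mdm2 wild-type group for 8 of 9. The mean of transport members was 6.22 to 6.36 in samples lacking mdm2, against 6.26 to 6.36 in those with it.

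Markers of other cell types were read beside these means. In the mdm2-null samples the liver mean was 7.77 and 9.32 with mutant p53 and 6.52 and 9.48 in p53-null samples, while the mitotic means kept to the narrow range given above. All 8 measured liver genes were called higher, against 1.96% of all features. The 7 thymocyte markers had a mean of 10.5 to 10.9 in samples lacking mdm2, against 10.8 to 10.9 in those with it. All 7 differences were negative, against 53.8% of all features, with a median of -0.14. Called were 0 of the 7, against 3.87% of all features, and 3 had an unadjusted p under 0.05, against 21.0%. The part of liver signal or thymocyte content in the kinesin differences was not tested, and fewer dividing cells cannot be told apart from less RNA per cell in these bulk samples.

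**Figure D3:**
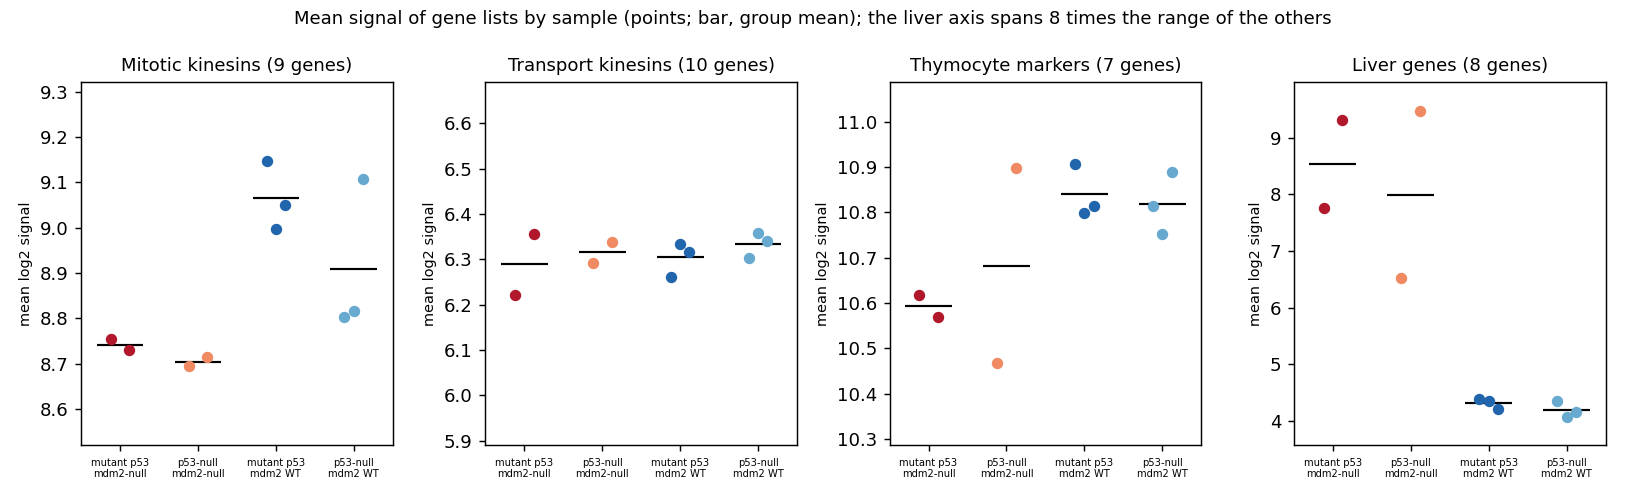
Mean log2 signal of mitotic kinesins, transport kinesins, thymocyte markers and liver genes in each sample, with points for samples and bars for group means. The mitotic mean is 8.69 to 8.75 in samples lacking mdm2, against 8.80 to 9.15 in those with it, the transport means overlap, and the liver means range from 6.52 to 9.48 among mdm2-null samples.

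Among transport kinesins, Kif1b was lower and Kif1c higher without mdm2. Kif1b carries mitochondria and synaptic vesicle precursors. Its signal was 7.15 and 7.47 in mutant p53, mdm2-null and 7.15 and 7.40 in p53-null, mdm2-null samples, against 7.82, 7.82 and 8.20 in mutant p53 and 7.94, 8.10 and 7.56 in p53-null samples with wild-type mdm2. The groups did not overlap, although replicate 3 of the p53-null group with mdm2, at 7.56, was close to the highest mdm2-null sample at 7.47. Kif1b fell by 0.61 (SE 0.13, adjusted p = 0.0411, limma), or 1.53-fold, and with single samples omitted the call held in 1 of 10 fits.

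Kif1c, a motor for dense core vesicles and Golgi traffic, had the largest difference of the family. It was 7.78 and 8.42 in mutant p53, mdm2-null and 7.88 and 8.12 in p53-null, mdm2-null samples. In samples with mdm2 it was 6.95, 7.63 and 6.84 in mutant p53 and 6.85, 6.997 and 7.49 in p53-null samples. The lowest mdm2-null sample, at 7.78, lay just above the highest mdm2 wild-type sample, at 7.63, and 3.93% of all features were likewise higher without overlap. Kif1c rose by 0.92 (SE 0.20, adjusted p = 0.0394, limma), or 1.89-fold, and with single samples omitted the call held in 2 of 10 fits. The array holds a second feature annotated to Kif1c, which did not show this: it was 7.09 to 7.32 in samples lacking mdm2, against 6.96 to 7.25 in those with it, with a difference of 0.07 (SE 0.09, adjusted p = 0.757). The value for Kif1c therefore belongs to the feature with the higher mean (6782149) and not to both. The 8 adipocyte genes had a mean of 6.02 to 7.68 in samples lacking mdm2, against 5.34 to 6.42 in those with it. Of these genes 3 were called higher, against 1.96% of all features. The 8 liver genes, all called higher, had a mean of 6.52 to 9.48 in samples lacking mdm2, against 4.08 to 4.39. The part of either list in the Kif1c difference was not tested.

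**Figure D4:**
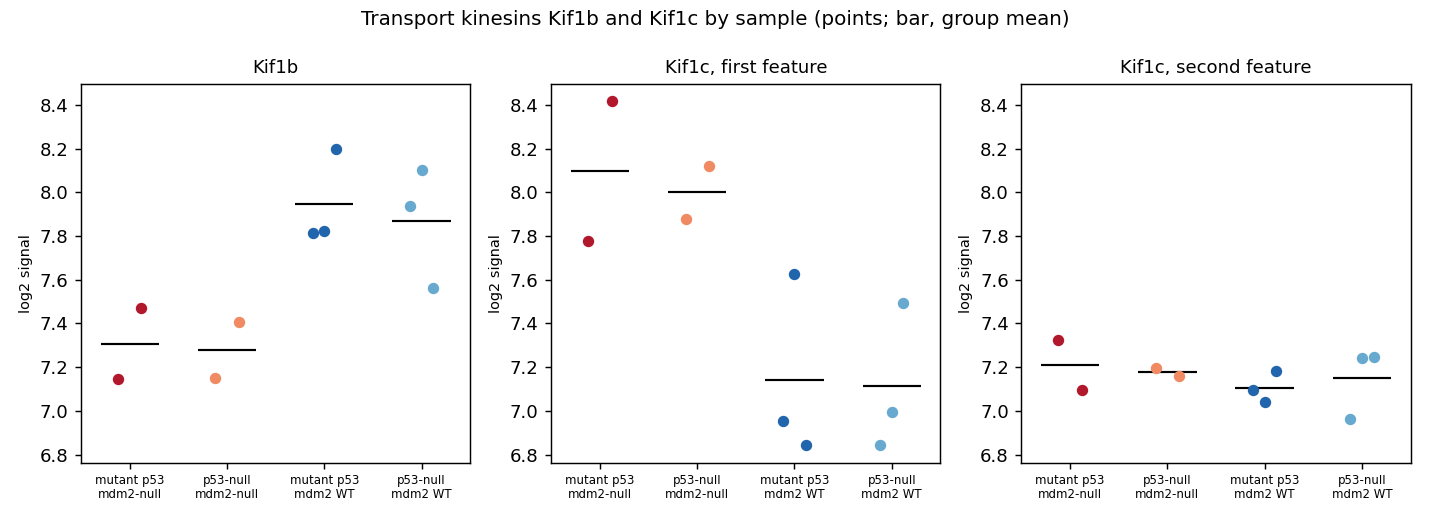
Log2 signal of Kif1b and of both features annotated to Kif1c in each sample, on the same scale, with points for samples and bars for group means. Kif1b is lower in the mdm2-null samples, the first Kif1c feature is higher in them (7.78 to 8.42, against 6.84 to 7.63), and the second Kif1c feature overlaps between the mdm2 genotypes.

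The other 8 transport members did not pass. Kif5b, the broadly expressed heavy chain of conventional kinesin, was 9.13 and 8.85 in mutant p53, mdm2-null and 9.01 and 9.49 in p53-null, mdm2-null samples. Where mdm2 was present it was 9.25, 9.42 and 9.40 in mutant p53 and 9.45, 9.55 and 9.66 in p53-null samples. The 9.49 of p53-null, mdm2-null replicate 2 thus lay inside the mdm2 wild-type range, and the difference of -0.33 (SE 0.11) had an adjusted p of 0.12 (limma). Its neuronal relatives Kif5a and Kif5c had differences of 0.04 and 0.03. Those of the heterotrimeric ciliary motor subunits Kif3a, Kif3b and Kif3c were -0.10, -0.03 and 0.09. Kif1a, which carries synaptic vesicle precursors in neurons, was at -0.12 and the endosomal motor Kif13a at -0.05. For these 7 genes the 95% intervals all lay between -0.36 and 0.41.

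Of the other kinesins, Kif24, which restrains cilium formation, averaged 6.30 ± 0.11 (SD, n = 4) in mdm2-null and 6.64 ± 0.26 (SD, n = 6) in mdm2 wild-type samples (adjusted p = 0.188, limma). Kif21a, an inhibitor of microtubule growth, was 4.64 to 4.92 in samples lacking mdm2, against 4.94 to 5.42 in those with it, which did not overlap, with a difference of -0.28 (adjusted p = 0.197). Kif2a, a depolymerase related to Kif2c but present in dividing and resting cells, averaged 8.59 ± 0.04 in mdm2-null and 8.54 ± 0.06 in mdm2 wild-type samples. Its difference of 0.05 had a 95% interval of -0.10 to 0.21, the only positive difference among these 8 genes. The remaining genes Kif6, Kif9, Kif12, Kif26b and Kif27 lay between -0.13 and -0.03. Signal in the lowest 25% of features was found for 7 members, Kif1a, Kif5a, Kif5c, Kif6, Kif12, Kif26b and Kif27, of which 0 were mitotic.

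The mdm2 difference was then taken within each p53 genotype, in groups that share no samples but share the estimate of spread. In mutant p53 thymi 9 of 9 mitotic members were negative, with a median of -0.34, and in 7 the mdm2-null samples lay below all mdm2 wild-type samples, against 19.7% of all features. The uncounted Kif18b feature was at -0.19 in mutant p53 and 0.07 in p53-null thymi. In p53-null thymi 8 of 9 members were negative, with a median of -0.23, and 5 did not overlap, against 13.8% of all features. The medians over all features were -0.02 in both, where 52.6% were negative in mutant p53 and 52.9% in p53-null thymi. Of the mitotic members 8 of 9 were negative in both genotypes, while 5 of 10 transport members had opposite signs in them. Over all features 63.5% had the same sign.

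Neither genotype gave a call on a member by limma, where 0.0129% of features were called in mutant p53 and 0.0214% in p53-null thymi. At an unadjusted p under 0.05 there were 7 members in mutant p53 and 6 in p53-null thymi, against 16.4% and 10.7% of all features, and the plain linear model and all other alternatives also called 0. Kif2c differed by -0.54 (SE 0.14, adjusted p = 0.127) in mutant p53 and by -0.13 (SE 0.14, adjusted p = 0.796) in p53-null thymi. The difference between these, -0.41, did not pass (SE 0.19, unadjusted p = 0.063, adjusted p = 0.995), and had a 95% interval of -0.85 to 0.03. Kif20a differed by -0.45 in mutant p53 and -0.39 in p53-null thymi, Kif11 by -0.36 and -0.31, Kif1b by -0.64 and -0.59, and Kif1c by 0.96 and 0.89. For the difference of the mdm2 effect between p53 genotypes limma called 0 members, where 0% of features were called, and 0 members had an unadjusted p under 0.05, against 4.27% of all features. The mitotic members were negative in this difference in 9 of 9 cases, with a median of -0.05, against 51.2% of all features.

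**Figure D5:**
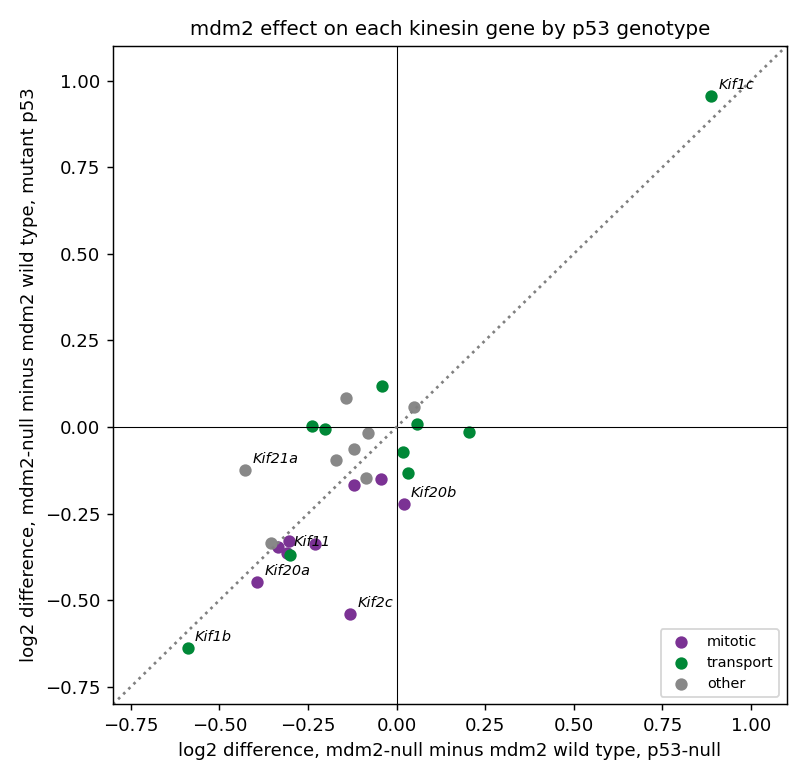
Log2 difference of each kinesin gene, mdm2-null minus mdm2 wild type, in mutant p53 thymi (vertical axis) and p53-null thymi (horizontal axis), coloured by role, with a dotted line of equal differences. Kif1b, Kif20a, Kif11 and Kif1c lie near the line, and Kif2c lies below it with -0.54 in mutant p53 and -0.13 in p53-null thymi. Transport members lie on both sides of 0 on each axis, and 5 of 10 have opposite signs in the p53 genotypes.

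Mutant p53 against no p53 was compared last, with mdm2 within a single array set, and without mdm2 between sets, where set and p53 genotype cannot be told apart. With wild-type mdm2 all 9 mitotic members had a positive difference, mutant p53 minus p53-null, from 0.10 to 0.20 with a median of 0.15, against 0.00 and 50.7% positive over all features. Transport members had a median of 0.02. The values of single samples overlapped for all 9 genes, and p53-null replicate 3 lay within or above the mutant p53 range for each. For Kif4 the samples were 8.53, 8.30 and 8.47 in mutant p53, against 8.13, 8.18 and 8.41 in p53-null thymi, a difference of 0.20 (SE 0.12, unadjusted p = 0.127, adjusted p = 1, limma). The smallest unadjusted p of a member was 0.0638, for Kif1a at -0.25, so 0 members had one under 0.05, against 2.96% of all features, and 0% of features were called. Of transport members Kif1a and Kif5b were lower without overlap, against 3.99% of all features.

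Without mdm2 the mitotic median was 0.09, with 7 of 9 positive, against 48.8% of all features, and the members ranged from -0.22 for Kif2c to 0.14 for Kif18a. Over both mdm2 genotypes all 9 were positive, from 0.03 to 0.16 with a median of 0.10, against 49.0% positive over all features, while transport members had a median of -0.02. The mitotic median was 0.13 above the transport median, between 0.10 and 0.18 over all settings. Limma and the plain linear model called 0 members in either comparison, with 0 at an unadjusted p under 0.05, against 2.54% of all features over both and 3.87% without mdm2, and 0% of features were called. The largest difference over both mdm2 genotypes was that of Kif5b at -0.23 (95% interval -0.47 to 0.02).

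Genes that work with kinesins were read against the same mdm2 difference over both p53 genotypes. Of 4 measured kinesins named otherwise, Cenpe, the motor that carries chromosomes to the spindle equator, was 7.77 and 7.50 in mutant p53, mdm2-null and 7.67 and 7.38 in p53-null, mdm2-null samples. With wild-type mdm2 it was 8.42, 8.03 and 8.13 in mutant p53 and 7.94, 7.97 and 8.39 in p53-null samples, again without overlap. It fell by 0.57 (SE 0.13, adjusted p = 0.0435, limma). The minus-end-directed motor genes Kifc2, Kifc3 and Kifc5b differed by 0.05, -0.02 and -0.11 and did not pass.

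Of 20 measured spindle and mitotic partners, 17 had a negative and 3 a positive difference, with a median of -0.12. Lower without overlap between the mdm2 genotypes were 3 of the 20, against 4.52% of all features, and 0 were higher without overlap. Of the 20 partners 1 was called, against 3.87% of all features. That gene was Hmmr, a spindle assembly factor that binds hyaluronan, at 7.48 to 7.70 in samples lacking mdm2, against 7.84 to 8.37 in those with it (-0.55, SE 0.10, adjusted p = 0.0253, limma). The microtubule bundler gene Nusap1 was at -0.61 and did not pass (adjusted p = 0.0581). Proliferation and replication genes had a median of -0.12 over 12 genes, with 10 negative and 0 called (1 at an unadjusted p under 0.05, against 21.0% of all features). The mitotic kinesins thus had the lowest median of these cell division lists, at -0.32, which was not tested.

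Partners of the transport motors gave no call, and their counts at an unadjusted p under 0.05 are to be read against the same 21.0% of all features. Kinesin light chains and cargo adaptors had a median of 0.06 over 14 genes, with 11 positive and 0 called (4 at an unadjusted p under 0.05). The smallest p-values were those of the light chain gene Klc4 at 0.30 (adjusted p = 0.108, limma) and the mitochondrial adaptor gene Rhot1 at -0.22 (adjusted p = 0.124). Genes of dynein and dynactin, the motor that runs toward microtubule minus ends, had a median of -0.14 over 13 genes, with 10 negative and 0 called (3 at an unadjusted p under 0.05). Every mdm2-null sample lay below every mdm2 wild-type sample in 4 of the 13, against 4.52% of all features, and above in 0. The dynactin gene Dctn4 was at -0.29 (adjusted p = 0.0627) and the dynein regulator gene Ndel1 at -0.30 (adjusted p = 0.0681). The 9 measured neuron markers, listed because several transport kinesins are neuronal, had a mean of 4.53 to 4.81 in samples lacking mdm2, against 4.56 to 4.78 in those with it.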

How the data were processed

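Thymus RNA of 10 samples was measured on arrays. Trizol and RNeasy extraction, ribosomal RNA depletion and biotin labelling are given in the labels' protocols. The deposited values are processed log2 signals of 23332 features; processing was in Partek 6.5 with build mm8, per the submitters' processing notes, and normalization and probe summary are not given in the sources used here. No header states the scale, and log2 was read from the range. All 10 columns were used as deposited, and 0 were left out. Of the features 14996 had 1 symbol, 1019 several and 7317 none.

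Tests ran over every feature in R 4.3.3 with limma 3.58.1 (moderated by eBayes, two-sided, Benjamini-Hochberg within a comparison, called at an adjusted p under 0.05). Differences over both genotypes came from an additive model, others from a model with 1 mean per group. The models were also run on simulated data that held no difference between array sets, so that run cannot speak to array set. The members and lists were chosen with earlier results of these data known. By the naming rule, any member could be named, with sample values for called members and the 3 mitotic and 3 transport members of smallest p. The number of arrays limits the precision (median SE of members 0.10 to 0.19). Promoter windows came from RefSeq, GRCm38.p6; coordinates of array features are not given, as the builds differ. Markers of muscle, fibroblasts, macrophages, B cells and erythroid cells were also read.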

Additional observations from a re-analysis of the deposited data

How the results depend on the processing

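Over both p53 genotypes, 4 kinesin genes were called for mdm2 with the values as deposited. Median centring left 1, the plain linear model 1 and the replicate block 0, and fits without 1 sample gave 0 to 2. Leaving out p53-null, mdm2 wild type replicates 1 and 2 together, a setting chosen after seeing the data, left 0, and the second Kif1c feature, also chosen then, left 3. In each of the other 6 comparisons every setting gave 0. Replicate numbers are shared by name only: of 13 pairs of samples with the same number in different groups, 1 correlated above 0.1 in their deviations, with a median of -0.0046. Under the block Kif11 was at -0.34, Kif20a at -0.40, Kif1b at -0.63 and Kif1c at 0.94, with adjusted p of 0.143, 0.151, 0.116 and 0.0853 (limma). Signs of some small, uncalled differences turned. Kif20b was 0.019 under the replicate block (mdm2 effect over both p53 genotypes). With array weights Kif1b was -0.0041 (p53 effect over both mdm2 genotypes), and with wild-type mdm2 Kif13a was -0.027 and Kif1b -0.018. Without 1 sample the p53 effect over both mdm2 genotypes ranged from -0.027 to 0.12 for Kif1b. With wild-type mdm2 it ranged from -0.16 to 0.016 for Kif5a, -0.027 to 0.16 for Kif13a, -0.074 to 0.195 for Kif1b, -0.12 to 9.2e-05 for Kif26b and -0.025 to 0.27 for Kif24. With mdm2 null it ranged from -0.0045 to 0.45 for Kif3a, -0.53 to 0.19 for Kif3c and -0.21 to 0.057 for Kif3b. The difference of the mdm2 effect between p53 genotypes ranged from -0.13 to 0.025 for Kif11, -0.032 to 0.425 for Kif3a, -0.58 to 0.14 for Kif3c and -0.35 to 0.014 for Kif13a. The causes were not tested.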

Other observations

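Of the cell type markers read beside the kinesins, 3 of 8 adipocyte genes were called higher without mdm2, against 1.96% of all features. Tfrc, the transferrin receptor gene that dividing cells and red cell precursors use for iron uptake, was called lower at -0.58 (SE 0.13, adjusted p = 0.04, limma). Its list of 5 erythroid genes had a median of 0.32 with 4 positive, but a single sample stood apart: the list's mean was 6.35 in p53-null, mdm2-null replicate 1 and 5.22, 5.33 and 5.41 in the other mdm2-null samples, against 5.06 to 5.41 with mdm2. In mutant p53 thymi the list's median was -0.02, with 3 of 5 negative. Rgs5, a pericyte gene, was the only fibroblast and vessel gene called, at -1.41. Macrophage and dendritic cell, B cell, thymic epithelial and skeletal muscle lists had medians of 0.02, -0.14, 0.04 and 0.09 with 0 called in each by limma, where the numbers at an unadjusted p under 0.05 were also 0.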
